A study of Arabidopsis thaliana with 9 samples.

Results

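Of the 22903 locus codes with a value in this series, 40 are nuclear genes for subunits of the 2 photosystems and of their light-harvesting antennae. They were taken by locus code from a list drawn up by annotation, with earlier results of these data known. LHCA1 to LHCA4 make up the antenna of photosystem I (LHCI, 4 genes). The antenna of photosystem II (LHCII) is represented by 14 genes, of which 9 encode the major trimeric antenna (LHCB1.1 to LHCB1.5, LHCB2.1 to LHCB2.3 and LHCB3) and 5 the minor monomeric antenna (LHCB4.1 to LHCB4.3, LHCB5 and LHCB6). A further 12 genes encode subunits of photosystem I and 10 encode subunits of photosystem II. Every one of the 40 genes passed the minimum of a mean of 1 CPM (the reads of a gene scaled to a common library total) and was tested.

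Photosystem II takes electrons from water and photosystem I passes them to ferredoxin. Each core is built from chloroplast-encoded reaction centre proteins and nuclear-encoded subunits, and antenna proteins that bind chlorophyll and carotenoids feed excitation energy into it. The nuclear genes are among the most abundant transcripts of green tissue, and in Arabidopsis they are known to respond to light, to signals from the chloroplast and to the circadian clock.

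The libraries came from whole Arabidopsis thaliana seedlings, 14 days old and grown on MS medium with 16 h of light and 8 h of darkness per day. Seedlings of 3 genotypes were sampled, aar2-1, aar2-2 and wild type (WT), with 3 biological replicates each. AAR2 (AT1G66510) is named for a yeast protein that acts in assembling the splicing machinery, and the labels name the mutant alleles without giving their lesions. The libraries held 24471852 to 35267559 counted reads, and each mutant library was deeper than each WT library. AAR2 had 7.33, 5.49 and 5.30 CPM in the aar2-1 libraries and 5.28, 4.36 and 4.11 CPM in the aar2-2 libraries, against 7.64, 7.11 and 8.27 CPM in the WT libraries. The gene was called lower in aar2-2 (log2 fold change -0.64, SE 0.13, limma adjusted p = 0.00908), and in aar2-1 the difference was not past the threshold (log2 fold change -0.31, SE 0.13, limma adjusted p = 0.101). Whole seedlings mix organs and cell types, and fewer cells of a type cannot be told apart from less RNA per cell. Of 12 root markers, 10 lay below the minimum, with CASP1 to CASP5 at or near 0 in every library. The list reached sums of 214 to 252 CPM (aar2-1) and 199 to 276 CPM (aar2-2), against 381 to 405 CPM in WT. Nearly all of it was PYK10, which was called lower in both mutants. Of the 2 root markers tested, 1 was called lower in aar2-1 and 2 were called lower in aar2-2. Without PYK10 the sums were 5.93 to 7.54 CPM (aar2-1) and 5.53 to 7.29 CPM (aar2-2), against 8.73 to 9.44 CPM in WT. Epidermis and guard cell markers summed to 378 to 411 CPM, 374 to 412 CPM and 372 to 409 CPM in aar2-1, aar2-2 and WT, with 1 of 5 (ATML1) called lower in each mutant. Vascular markers reached 393 to 401 CPM (aar2-1) and 357 to 373 CPM (aar2-2), against 397 to 422 CPM in WT, and 1 of 6 (SUC2) was called lower in aar2-2. The part of tissue makeup in the results was not tested.

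WT replicate 2 stood apart from all other libraries for these genes. It had the highest level of the 9 libraries for 37 of the 40 genes, whereas it was highest for 9.27% of all 18838 genes tested. At the other end, aar2-2 replicate 3 was the lowest library for 30 of the 40. The counts of calls and the sums of each complex are therefore given with and without WT replicate 2.

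The upstream sequence of 4 genes is shown because they range from the largest decrease to a level close to that of WT. Genes with a positive fold change are not among them. LHCB1.4 had the largest fold change of the 40 genes in both mutants, and LHCB2.3 the second largest in aar2-2. LHCB4.1 encodes a minor antenna protein whose level was close to that of WT in both mutants. PSAG, a photosystem I subunit, was called lower in both. The sequences are the 250 bases before the annotated gene start, read 5′ to 3′ on the gene's strand from the TAIR10.1 assembly and RefSeq annotation. They lie at chr2:14524357-14524606 (plus strand) for LHCB1.4, chr3:10255656-10255905 (plus strand) for LHCB2.3, chr5:208616-208865 (plus strand) for LHCB4.1 and chr1:20803450-20803699 (minus strand) for PSAG. Capitals mark matches to 5 motifs on either strand.
LHCB1.4: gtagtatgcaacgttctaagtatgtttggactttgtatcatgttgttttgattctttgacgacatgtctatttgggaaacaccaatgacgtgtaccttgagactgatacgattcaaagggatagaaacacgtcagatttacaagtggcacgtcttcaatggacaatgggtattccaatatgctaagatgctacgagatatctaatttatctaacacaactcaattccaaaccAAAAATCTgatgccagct
LHCB2.3: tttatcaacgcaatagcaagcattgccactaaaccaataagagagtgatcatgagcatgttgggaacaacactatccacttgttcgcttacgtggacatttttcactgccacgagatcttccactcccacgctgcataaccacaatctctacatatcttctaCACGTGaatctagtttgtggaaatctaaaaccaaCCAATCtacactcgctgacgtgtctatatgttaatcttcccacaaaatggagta
LHCB4.1: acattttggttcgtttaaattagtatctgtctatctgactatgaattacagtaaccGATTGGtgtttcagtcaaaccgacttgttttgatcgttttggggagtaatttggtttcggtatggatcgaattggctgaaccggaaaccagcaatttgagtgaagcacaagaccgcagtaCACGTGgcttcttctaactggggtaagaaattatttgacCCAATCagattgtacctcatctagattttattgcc
PSAG: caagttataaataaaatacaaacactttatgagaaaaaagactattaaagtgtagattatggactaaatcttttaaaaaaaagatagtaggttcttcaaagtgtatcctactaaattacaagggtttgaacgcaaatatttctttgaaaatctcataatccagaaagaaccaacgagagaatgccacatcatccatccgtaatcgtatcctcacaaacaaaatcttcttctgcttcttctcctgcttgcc

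The motifs searched were CACGTG (the G-box, bound by HY5 and by PIF factors), GATAAG (the I-box of light-responsive promoters), CCAATC (a hexamer reported at promoters bound by the GLK factors), and AAAAATCT and AACAATCT (sequences recognised by the clock factor CCA1). No matches of different motifs overlapped. LHCB1.4 held only AAAAATCT. LHCB2.3 and LHCB4.1 both held CACGTG and CCAATC, although their transcript levels behaved differently. None of the 5 was found in the PSAG window. CCAATC was present in 11 of the 40 windows (27.5%), against 10.2% of the 27443 windows of all protein-coding genes. It was found in 3 of 4 LHCI genes, 5 of 9 major antenna genes and 2 of 5 minor antenna genes, but in 0 of 12 photosystem I and 1 of 10 photosystem II subunit genes. CACGTG was present in 8 of 40 (20% against 6.49% of all windows), GATAAG in 9 of 40 (22.5% against 12.3%), AAAAATCT in 5 of 40 (12.5% against 6.69%) and AACAATCT in 1 of 40 (2.5% against 1.83%). These matches describe the letters of the window and are not evidence of binding.

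The antenna genes are close copies of each other, which bears on how reads were assigned. LHCB1.1, LHCB1.2 and LHCB1.3 lie side by side on chromosome 1, have no introns, and share 95.7% to 96.4% of their coding bases. The first 90 coding bases of each are shown to make this visible, from chr1:10475803-10475892 (minus strand) for LHCB1.1, chr1:10473157-10473246 (minus strand) for LHCB1.2 and chr1:10478071-10478160 (plus strand) for LHCB1.3, with capitals at the 9 positions where the 3 genes are not all the same.
LHCB1.1: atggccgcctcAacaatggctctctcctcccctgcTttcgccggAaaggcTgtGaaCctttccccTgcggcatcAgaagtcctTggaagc
LHCB1.2: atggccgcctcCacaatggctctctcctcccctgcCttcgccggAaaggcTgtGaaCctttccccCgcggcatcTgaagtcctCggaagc
LHCB1.3: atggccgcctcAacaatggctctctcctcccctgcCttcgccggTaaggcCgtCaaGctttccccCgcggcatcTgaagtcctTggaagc
Over the whole coding sequence of 804 bases they differed at 47 positions. LHCB2.1 and LHCB2.2 were 96.6% identical, and 9.87% and 12.4% of the windows of 100 bases in their transcripts occurred in the other copy unchanged. For LHCB1.1 this share was 4.44%. Every window of LHCB1.5 is also held by an antisense RNA, AT2G08665, which is not among the measured codes. Whether the counting used strand is not given in the sources used here, and 15 of the 40 genes overlap exons of a measured gene on the other strand. The overlap covers 61.4% of the exons of PSAG, 53.3% of PSAH1, 40.6% of LHCB2.3, 33% of PSAE1 and 24.8% of PSAH2. The levels of these genes and of the near-identical copies are therefore uncertain to that extent.

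In aar2-2, 14 of the 40 genes were lower than in WT and 0 were higher, at a limma adjusted p under 0.05. This was 35% of the group, while 9.4% of all genes tested were called lower and 21.5% were called in either direction. In aar2-1, 2 of the 40 were called lower (5%) and 0 higher, fewer than the 25.1% of all genes called in that mutant (13.6% of all genes lower and 11.5% higher). Both genes called in aar2-1, LHCB1.4 and PSAG, were also lower in aar2-2, and 7.17% of all genes were called lower in both mutants. The 14 genes were all 9 of the major antenna, LHCB4.2 of the minor antenna, PSAD2, PSAG and PSAN of photosystem I, and PSBQ2 of photosystem II. No gene of LHCI was called by limma with all libraries in either mutant. On recovered reads, edgeR called 18 genes lower in aar2-2 and DESeq2 19, beside 12.1% and 12.9% of all genes called lower. Both included LHCA1, LHCA3 and LHCA4. The median log2 fold change of the 40 genes was -0.19 in aar2-1 and -0.25 in aar2-2, beside -0.0037 and 0.032 over all genes tested. For the major antenna it was -0.57 in aar2-1 and -0.91 in aar2-2. LHCI came next in both mutants with -0.25 and -0.47. The minor antenna had -0.05 and -0.24, photosystem I -0.15 and -0.21, and photosystem II -0.14 and -0.14. Without WT replicate 2, 0 genes were called in aar2-1 and 6 in aar2-2 (LHCB1.1, LHCB1.4, LHCB2.1, LHCB2.2, LHCB2.3 and PSAG). Of all genes, 18.1% in aar2-1 and 13.8% in aar2-2 were then called in either direction. The medians of the 40 genes were then -0.09 in aar2-1 and -0.14 in aar2-2, and the major antenna medians were -0.30 and -0.65. Without aar2-2 replicate 3, 4 genes were called in aar2-2, all of the major antenna, beside 13.4% of all genes called in either direction. Quantile normalization split the calls in aar2-2 into 11 lower and 2 higher (PSBQ1 and PSBS), and in aar2-1 into 1 lower (PSAG) and 1 higher (PSBS). Of all genes, 21.6% in aar2-2 and 25.9% in aar2-1 were called under it.

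**Figure D1:**
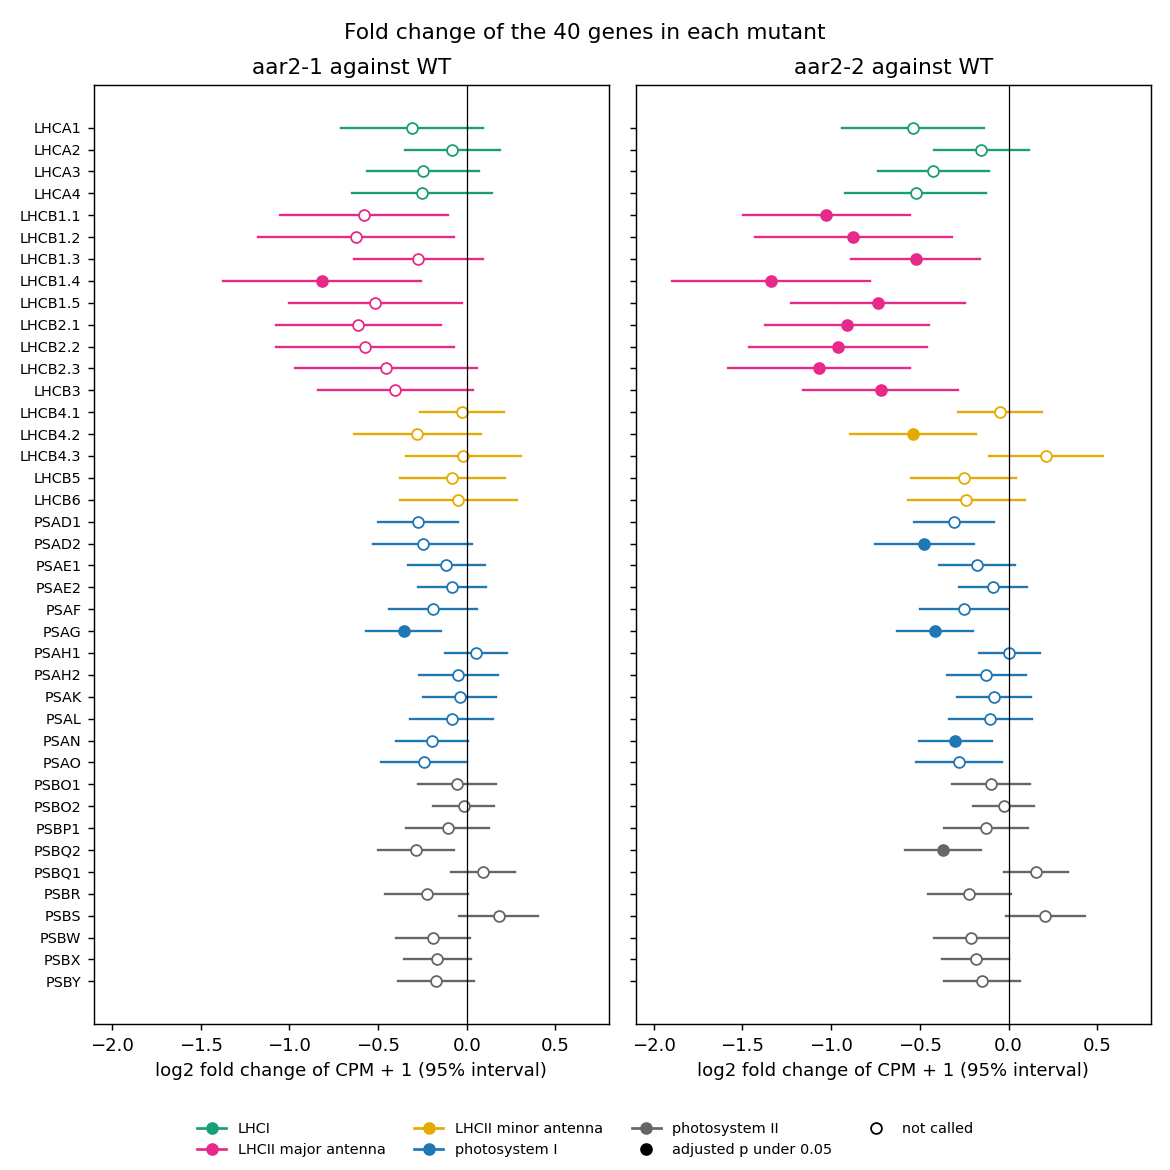
Log2 fold change of CPM + 1 against WT (x axis) for each of the 40 genes (rows, coloured by complex), in aar2-1 (left) and aar2-2 (right). Points are limma estimates from 3 libraries per genotype, lines are 95% intervals, and filled points have an adjusted p under 0.05. In aar2-2 the major antenna genes run from -0.52 for LHCB1.3 to -1.34 for LHCB1.4. Except LHCB1.3 they lie further left than all other genes, of which LHCA1 and LHCB4.2 reach -0.54.

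The libraries were also compared without a test. All 3 aar2-1 libraries lay below all 3 WT libraries for 13 of the 40 genes, compared with 21.8% of all genes tested, and 0 lay above, compared with 19.8%. All 3 aar2-2 libraries lay below WT for 22 of the 40, compared with 19.2% of all genes, and 1 gene (PSBQ1) lay above, compared with 25.1% of all genes. The 22 comprised 9 of 9 major antenna genes, 3 of 4 LHCI genes, 1 of 5 minor antenna genes, 5 of 12 photosystem I genes and 4 of 10 photosystem II genes.

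Summed over their genes, the complexes took different shares of the library. All 40 genes together held 8.37% ± 0.21 of the counted reads in aar2-1 and 7.63% ± 0.76 in aar2-2, against 9.97% ± 1.85 in WT (SD, n = 3 each). The mutant means differed from WT by -16.1% and -23.5%, and without WT replicate 2 by -6.25% and -14.5%. The libraries of aar2-1 summed 27498, 23412 and 25810.4 CPM over the major antenna and those of aar2-2 24525, 21882 and 16892 CPM, against 31566, 45369 and 28706.5 CPM in WT. All mutant libraries lay below all WT libraries for this sum, by 27.4% in aar2-1 and 40.1% in aar2-2 on the means, or by 15.1% and 30% without WT replicate 2. For LHCI the sums averaged 10646 ± 626 CPM in aar2-1 and 9399 ± 1049 CPM in aar2-2, against 12571 ± 2886 CPM in WT (SD, n = 3 each). On the means LHCI differed from WT by -15.3% in aar2-1 and -25.2% in aar2-2, or by -2.71% and -14.1% without WT replicate 2. Photosystem I subunits together averaged 16880.4 ± 148 CPM (aar2-1) and 16263 ± 1036 CPM (aar2-2), against 19130 ± 2461 CPM in WT. Their means differed from WT by -11.8% and -15%, or by -5% and -8.47% without WT replicate 2. The sums of photosystem II subunits were 19363 ± 567 CPM in aar2-1 and 19214 ± 806 CPM in aar2-2, against 20815 ± 2119 CPM in WT. These means differed from WT by -6.98% and -7.69%, or by -1.37% and -2.13% without WT replicate 2. The minor antenna averaged 11250.2 ± 164 CPM (aar2-1) and 10331 ± 972 CPM (aar2-2), against 12012 ± 2121 CPM in WT. Here the aar2-1 mean differed from WT by -6.34%, but was 4.01% above WT without WT replicate 2. The aar2-2 mean differed by -14%, or by -4.49% without it. In these 4 groups the libraries of each mutant overlapped those of WT, except that the highest aar2-1 sum for photosystem I, 17043.5 CPM, was just under the lowest WT sum, 17058 CPM.

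Within a library, the ratio of the major antenna sum to the photosystem II subunit sum was 1.44, 1.17 and 1.36 in aar2-1 and 1.22, 1.16 and 0.906 in aar2-2, against 1.57, 1.96 and 1.5 in WT. Every mutant library was below every WT library in this ratio. The ratio of the minor antenna to photosystem II overlapped between genotypes, at 0.553 to 0.600 in aar2-1 and 0.505 to 0.564 in aar2-2, against 0.542 to 0.621 in WT. LHCI over photosystem I ran from 0.583 to 0.663 in aar2-1 and from 0.546 to 0.602 in aar2-2, against 0.606 to 0.724 in WT. That left the aar2-2 libraries just under the WT range and the aar2-1 libraries overlapping it. Photosystem I over photosystem II was 0.852 to 0.887 in aar2-1 and 0.813 to 0.870 in aar2-2, against 0.893 to 0.943 in WT, so the mutant libraries were again below all WT libraries, by a small margin.

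**Figure D2:**
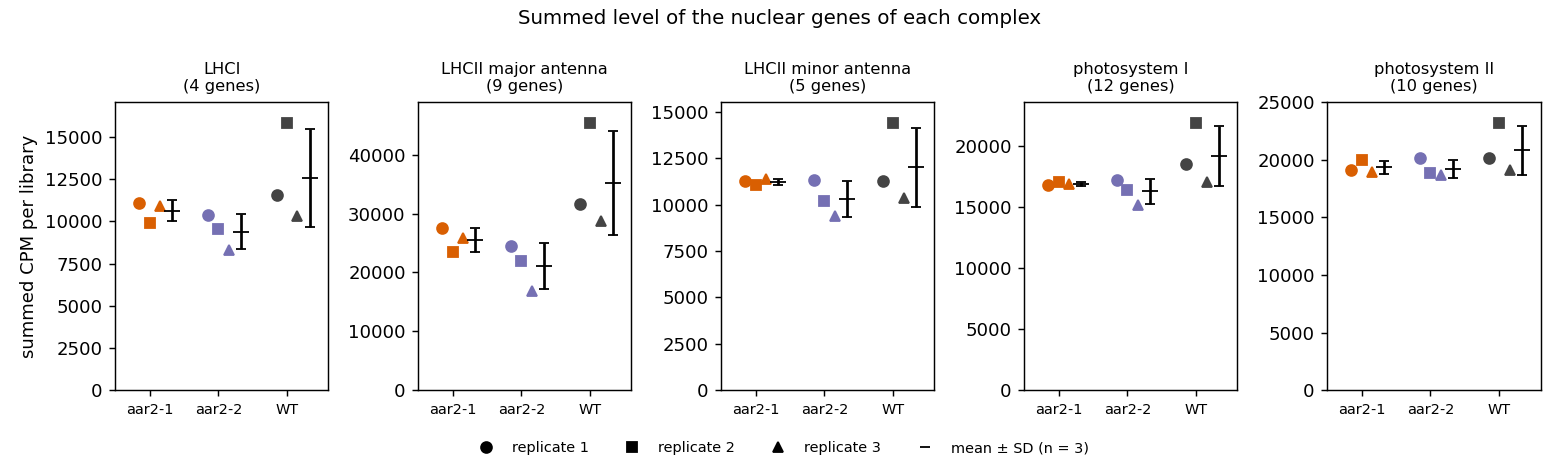
Summed CPM per library (y axis, from 0) of the genes of LHCI, the major and minor LHCII antenna, photosystem I and photosystem II, for aar2-1, aar2-2 and WT. Symbols are the 3 replicates and bars the mean ± SD. The major antenna sums of the 6 mutant libraries run from 16892 to 27498 CPM and lie below the 3 WT libraries, of which replicate 2 reaches 45369 CPM.

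LHCB1 proteins form most of the trimeric antenna of photosystem II, and LHCB1.3 (AT1G29930) was the most abundant of the 40 transcripts per length, at 9560.5 CPM per kb of transcript in aar2-1 and 8103 in aar2-2, against 11646 ± 1911 in WT (SD, n = 3). LHCB1.5 (AT2G34420) followed with 5549 ± 1758 CPM per kb in WT. LHCB1.4 (AT2G34430) had 789, 636 and 817 CPM in the aar2-1 libraries and 637, 627 and 345 CPM in the aar2-2 libraries, against 1159.6, 1804 and 1072 CPM in the WT libraries. All 6 mutant libraries were below all 3 WT libraries, and aar2-2 replicate 3 was the lowest. LHCB1.4 was called lower in aar2-1 (log2 fold change -0.82, SE 0.25, limma adjusted p = 0.0395) and in aar2-2 (log2 fold change -1.34, SE 0.25, limma adjusted p = 0.0071), to 0.568 and 0.395 of WT. Without WT replicate 2 the aar2-2 call was kept and the aar2-1 call was not. The aar2-1 call was also lost without WT replicate 1, without any 1 of the aar2-1 libraries and under quantile normalization. The libraries gave 3238, 2667 and 2825 CPM of LHCB1.1 (AT1G29920) for aar2-1, 2621, 2215 and 1657 CPM for aar2-2 and 3786, 6001 and 3576 CPM for WT. Again no mutant library reached WT, and the aar2-2 libraries were also all below those of aar2-1. The call was made in aar2-2 (log2 fold change -1.03, SE 0.21, limma adjusted p = 0.0105) but not in aar2-1 (log2 fold change -0.58, SE 0.21, limma adjusted p = 0.0717). For LHCB1.3, the values were 11889.7, 11260.0 and 12128 CPM in aar2-1, 11359.9, 10328 and 8211 CPM in aar2-2 and 13285, 17016 and 12673 CPM in WT. LHCB1.3 had the smallest fold change of the major antenna (log2 fold change -0.52, SE 0.16, limma adjusted p = 0.0455 in aar2-2), and its call held under 7 of 18 alternatives at the same threshold. It made up 32% ± 1.13 of the LHCII sum in aar2-1 and 31.7% ± 0.47 in aar2-2, against 30.6% ± 2.01 in WT (SD, n = 3 each), shares that overlapped between genotypes. LHCB1.2 (AT1G29910) and LHCB1.5 were called lower in aar2-2, at -0.87 and -0.73 on the log2 scale (limma adjusted p = 0.0336 and 0.0391). In aar2-1 they had -0.62 and -0.52, with a library overlapping WT. DESeq2 called LHCB1.1 and LHCB1.5 lower in aar2-1 as well.

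LHCB2 proteins share the trimers with LHCB1 and are phosphorylated in state transitions, the shift of antenna between photosystems. Levels of LHCB2.3 (AT3G27690) were 382, 409 and 342 CPM in aar2-1 and 333, 228 and 195 CPM in aar2-2, compared with 439, 743 and 421 CPM in WT. The genotypes did not overlap, with aar2-2 lowest and WT highest. LHCB2.3 was lower in aar2-2 (log2 fold change -1.07, SE 0.23, limma adjusted p = 0.0121), to 0.477 of WT, while the aar2-1 difference did not pass the test (log2 fold change -0.45, SE 0.23, limma adjusted p = 0.175). Its level per length was the second lowest of the 40 genes, and 40.6% of its exons overlap AT3G27700 on the other strand. In aar2-1 LHCB2.1 (AT2G05100) stood at 1284, 1073 and 1043 CPM and in aar2-2 at 1083, 923 and 769.8 CPM, against 1521, 2482 and 1355 CPM in WT. In aar2-2 LHCB2.1 was called at a log2 fold change of -0.91 (limma adjusted p = 0.015), and in aar2-1 it had -0.61 (adjusted p = 0.0565). By DESeq2, with the replicate number as a block and without WT replicate 3, LHCB2.1 was called lower in aar2-1 too. LHCB2.2 (AT2G05070), its near-identical neighbour, was called in aar2-2 at -0.96 (limma adjusted p = 0.0167) and not in aar2-1, at -0.57. LHCB3 (AT5G54270), a further protein of the trimeric antenna, was called in aar2-2 at -0.72 (limma adjusted p = 0.0288). In aar2-1 LHCB3 had -0.40 (limma adjusted p = 0.159). LHCB1.1, LHCB1.4, LHCB2.1 and LHCB2.3 were called lower in aar2-2 under all 18 alternatives that kept the threshold at an adjusted p of 0.05, and LHCB2.2 under 17 of them. At an adjusted p under 0.01, LHCB1.4 alone of the 40 was called there. The aar2-2 calls of LHCB1.2, LHCB1.5 and LHCB3 were lost without WT replicate 1 or 2 and without aar2-2 replicate 2 or 3, and that of LHCB1.5 also without aar2-1 replicate 1 or aar2-2 replicate 1 and with no filter on low values.

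The minor antenna links the trimers to the photosystem II core, and 1 of its 5 genes was called, in aar2-2. LHCB4.1 (AT5G01530) had 3482, 3559 and 3561 CPM in the aar2-1 libraries and 3726, 3493 and 3260.3 CPM in the aar2-2 libraries, against 3494, 4112 and 3255 CPM in the WT libraries. The 3 genotypes overlapped, and the fitted log2 fold changes were -0.03 in aar2-1 (95% interval -0.26 to 0.21) and -0.05 in aar2-2 (-0.28 to 0.19). The libraries gave 1173, 1179 and 1230.2 CPM of LHCB4.2 (AT3G08940) for aar2-1, 1129, 991 and 887 CPM for aar2-2 and 1346, 1923 and 1174 CPM for WT. LHCB4.2, its paralogue, was called lower in aar2-2 (log2 fold change -0.54, SE 0.16, limma adjusted p = 0.039), where all 3 libraries were below those of WT and of aar2-1. That call held under 11 of 18 alternatives and was lost without WT replicate 2. For LHCB4.3 (AT2G40100), the values were 164, 188 and 173 CPM in aar2-1, 196, 183 and 239.6 CPM in aar2-2 and 214, 140.4 and 185 CPM in WT. LHCB4.3, the least abundant of the 40 genes per length, ran against the others: WT replicate 2 was its lowest library and aar2-2 replicate 3 its highest. It was not called in aar2-1 (-0.02) or in aar2-2 (0.21). LHCB5 (AT4G10340) was fitted at -0.08 for aar2-1 and -0.25 for aar2-2, LHCB6 (AT1G15820) at -0.05 and -0.24, and neither was called.

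LHCI forms a belt on one side of photosystem I, and all 4 of its genes had negative fold changes in both mutants without passing the limma test. By edgeR and by DESeq2, LHCA1 (AT3G54890), LHCA3 (AT1G61520) and LHCA4 (AT3G47470) were called lower in aar2-2, as they were by limma without WT replicate 3, and LHCA2 (AT3G61470) was not. Levels of LHCA1 were 2469, 2029 and 2331 CPM in aar2-1 and 2204, 2028 and 1626 CPM in aar2-2, compared with 2569, 3753 and 2309 CPM in WT. All aar2-2 libraries were below WT, while the aar2-1 libraries overlapped WT. LHCA1 had a log2 fold change of -0.31 (limma adjusted p = 0.23) in aar2-1 and -0.54 (adjusted p = 0.0575) in aar2-2. In aar2-1 LHCA4 stood at 3285, 2772 and 3128 CPM and in aar2-2 at 2898, 2532 and 2204 CPM, against 3331, 4879 and 2955 CPM in WT. LHCA4, with the highest mean CPM of the 4, had -0.25 and -0.52 (limma adjusted p = 0.324 and 0.0609). LHCA3 had -0.25 in aar2-1 and -0.42 in aar2-2, the second with a limma adjusted p of 0.0563. LHCA2 had 2926, 2927 and 3153 CPM in the aar2-1 libraries and 3024, 2932 and 2616 CPM in the aar2-2 libraries, against 3089, 3756 and 2753 CPM in the WT libraries. LHCA2 overlapped between all genotypes and had the smallest fold changes of LHCI, -0.08 and -0.15. The 95% intervals in aar2-2 reached from -0.94 to -0.14 for LHCA1 and from -0.42 to 0.11 for LHCA2.

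Among photosystem I subunits, PSAG (AT1G55670), which binds at the side where LHCI attaches, was the one called by limma in both mutants. The libraries gave 1884, 1978 and 1883 CPM of PSAG for aar2-1, 1889, 1900.1 and 1722 CPM for aar2-2 and 2402, 2764 and 2213 CPM for WT. No mutant library overlapped WT, and the aar2-1 and aar2-2 libraries were alike in range. The fold changes were small but tight in aar2-1 (log2 fold change -0.36, SE 0.10, limma adjusted p = 0.0238) and in aar2-2 (log2 fold change -0.42, SE 0.10, limma adjusted p = 0.0152). The aar2-1 call was lost without WT replicate 1 or 2 and without aar2-1 replicate 1 or 3, and the aar2-2 call without WT replicate 1 and without aar2-2 replicate 3. PSAG overlaps AT1G55673 on the other strand over 61.4% of its exons. PSAD and PSAE form the stromal ridge on which ferredoxin docks, each from a pair of genes. For PSAD2 (AT1G03130), the values were 781, 865 and 824 CPM in aar2-1, 762, 708 and 642 CPM in aar2-2 and 950.1, 1195 and 822 CPM in WT. In PSAD2 the aar2-2 libraries were below all others, and the gene was called there (log2 fold change -0.48, SE 0.13, limma adjusted p = 0.0254) but not in aar2-1 (-0.25). Levels of PSAD1 (AT4G02770) were 1718, 1731 and 1707 CPM in aar2-1 and 1778, 1737 and 1539 CPM in aar2-2, compared with 2024, 2381 and 1865 CPM in WT. PSAD1 was below WT in all 6 mutant libraries and missed the threshold in aar2-1 (log2 fold change -0.27, SE 0.10, limma adjusted p = 0.0725) and in aar2-2 (log2 fold change -0.31, SE 0.10, limma adjusted p = 0.0558). TMM scaling, edgeR and DESeq2 called it lower in aar2-2, and DESeq2 also in aar2-1. Without WT replicate 3, limma called it in both. The PSAD2 call was lost without WT replicate 1 or 2 and without aar2-2 replicate 2 or 3. In aar2-1 PSAE1 (AT4G28750) stood at 1358, 1366 and 1356 CPM and in aar2-2 at 1371, 1298 and 1239.6 CPM, against 1423, 1701 and 1318 CPM in WT. PSAE2 (AT2G20260) had 406, 409 and 427 CPM in the aar2-1 libraries and 439.7, 415 and 385 CPM in the aar2-2 libraries, against 428, 495 and 397 CPM in the WT libraries. Both PSAE genes overlapped between the genotypes, with PSAE1 at -0.11 (aar2-1) and -0.18 (aar2-2) and PSAE2 at -0.08 and -0.09 on the log2 scale.

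PSAF (AT1G31330) and PSAN (AT5G64040) line the lumenal side where plastocyanin docks. PSAN was called in aar2-2 (log2 fold change -0.30, SE 0.09, limma adjusted p = 0.0437), a call that held under 8 of 18 alternatives, and in aar2-1 it had -0.20. PSAF had -0.19 in aar2-1 and -0.25 in aar2-2 and was not called. PSAH, PSAL (AT4G12800) and PSAO (AT1G08380) lie where mobile LHCII attaches during state transitions. The libraries gave 786, 789.8 and 792 CPM of PSAH1 (AT3G16140) for aar2-1, 783, 767 and 740.5 CPM for aar2-2 and 734, 852 and 705 CPM for WT. For PSAH2 (AT1G52230), the values were 632, 683 and 630.3 CPM in aar2-1, 691, 588 and 569 CPM in aar2-2 and 641, 762 and 614 CPM in WT. PSAH1 was nearly level, at 0.05 in aar2-1 and 0.0042 in aar2-2, and the sign in aar2-2 turned negative under TMM scaling, quantile normalization, edgeR and DESeq2. PSAH2 had -0.05 and -0.12. Levels of PSAL were 3006, 3026 and 2978 CPM in aar2-1 and 3069, 3015 and 2812 CPM in aar2-2, compared with 3095, 3680.3 and 2836 CPM in WT. PSAL overlapped between genotypes, with -0.08 in aar2-1 and -0.10 in aar2-2. PSAO had -0.24 (limma adjusted p = 0.13) and -0.28 (adjusted p = 0.0941). PSAK (AT1G30380) had 1295, 1339 and 1303 CPM in the aar2-1 libraries and 1413, 1213 and 1208 CPM in the aar2-2 libraries, against 1336, 1494 and 1231 CPM in the WT libraries. PSAK, on the antenna side of the core, had -0.04 and -0.08, and the signs of PSAL and PSAK turned positive in both mutants under quantile normalization.

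Of the 10 photosystem II subunit genes, 1 was called, in aar2-2. PSBO, PSBP and PSBQ are the extrinsic proteins that shield the manganese cluster where water is split. In aar2-1 PSBQ2 (AT4G05180) stood at 1114, 1089.9 and 1098 CPM and in aar2-2 at 1139, 1026 and 957 CPM, against 1288, 1523 and 1228 CPM in WT. PSBQ2 was below WT in all 6 mutant libraries and was called in aar2-2 (log2 fold change -0.37, SE 0.10, limma adjusted p = 0.0249), while in aar2-1 it just missed the threshold (log2 fold change -0.28, SE 0.10, limma adjusted p = 0.0547). The aar2-2 call was lost without WT replicate 1 or 2 and without aar2-2 replicate 2 or 3, and DESeq2 called PSBQ2 lower in both mutants. PSBQ1 (AT4G21280) had 1401, 1514 and 1356 CPM in the aar2-1 libraries and 1587, 1410.1 and 1458 CPM in the aar2-2 libraries, against 1360.2, 1392 and 1252 CPM in the WT libraries. Its paralogue PSBQ1 was above WT in all 3 aar2-2 libraries, but its log2 fold changes (0.09 for aar2-1, 0.15 for aar2-2) did not pass the test. The libraries gave 3648, 3562 and 3571 CPM of PSBO1 (AT5G66570) for aar2-1, 3644, 3519 and 3293 CPM for aar2-2 and 3549, 4192 and 3477 CPM for WT. For PSBO2 (AT3G50820), the values were 1133, 1249.7 and 1129.8 CPM in aar2-1, 1199.9, 1121 and 1164 CPM in aar2-2 and 1152, 1271 and 1128 CPM in WT. The PSBO genes overlapped between genotypes. PSBO1 had -0.05 in aar2-1 and -0.10 in aar2-2, PSBO2 had -0.02 and -0.03, and all of these turned positive under quantile normalization. PSBP1 (AT1G06680) had -0.11 and -0.13. PSBR (AT1G79040), needed for stable binding of the extrinsic proteins, had -0.23 and -0.22 with all mutant libraries below WT, and was not called (limma adjusted p = 0.142 and 0.156). PSBW (AT2G30570), PSBX (AT2G06520) and PSBY (AT1G67740), small membrane subunits, ranged from -0.19 to -0.17 in aar2-1 and from -0.21 to -0.15 in aar2-2 and were not called. PSBS (AT1G44575), which triggers the dissipation of excess light as heat, had positive values of 0.18 and 0.21 (limma adjusted p = 0.21 and 0.16).

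For 6 subunits encoded by a pair of similar genes, the share of each copy in the pair's sum was compared between each mutant and WT by a two-sided exact permutation test, 3 libraries against 3. These comparisons cannot give a p below 0.1, and over the 12 tests the lowest adjusted p was 0.171. PSBQ1 held 55.7%, 58.1% and 55.3% of its pair in aar2-1 and 58.2%, 57.9% and 60.4% in aar2-2, against 51.4%, 47.7% and 50.5% in WT. The mutant and WT shares did not overlap in either mutant (exact p = 0.1 for each). LHCB4.1 held 74.8%, 75.1% and 74.3% of its pair with LHCB4.2 in aar2-1 and 76.7%, 77.9% and 78.6% in aar2-2, against 72.2%, 68.1% and 73.5% in WT, again without overlap (exact p = 0.1 for each). PSAD1 averaged 67.6% ± 1.05 of its pair in aar2-1 and 70.5% ± 0.52 in aar2-2, against 68% ± 1.41 in WT (SD, n = 3 each), and was apart from WT in aar2-2 (exact p = 0.1) but not in aar2-1 (exact p = 0.8). PSAE1 took 76.7% ± 0.55 in aar2-1 and 75.9% ± 0.32 in aar2-2, against 77.1% ± 0.36 in WT, which gave exact p values of 0.6 and 0.1. PSAH1 took 54.9% ± 1.12 in aar2-1 and 55.4% ± 2 in aar2-2, against 53.2% ± 0.37 in WT, with exact p values of 0.1 and 0.3. For PSBO1 the shares were 75.4% ± 1.23 in aar2-1 and 75% ± 1 in aar2-2, against 75.9% ± 0.71 in WT, with exact p values of 0.8 and 0.4.

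Between the mutants, 0 of the 40 genes differed at a limma adjusted p under 0.05, as did 0 by edgeR and 0 by DESeq2. By limma, 1 gene had an unadjusted p under 0.05, and the lowest adjusted p was 0.252. Of all genes tested, 0.0212% were called in this comparison, 0.0159% lower and 0.00531% higher in aar2-2. The fitted difference, aar2-2 minus aar2-1, was negative for 35 of the 40 genes, including all 9 of the major antenna and all 4 of LHCI. For 6 of the 40 (LHCB1.1, LHCB2.2, LHCB2.3, LHCB4.2, PSAD2 and PSAH1) all aar2-2 libraries were below all aar2-1 libraries, compared with 6.12% of all genes tested. Both comparisons with WT use the same WT libraries, and the larger number of calls in aar2-2 is not itself a test of a difference between the mutants.

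**Figure D3:**
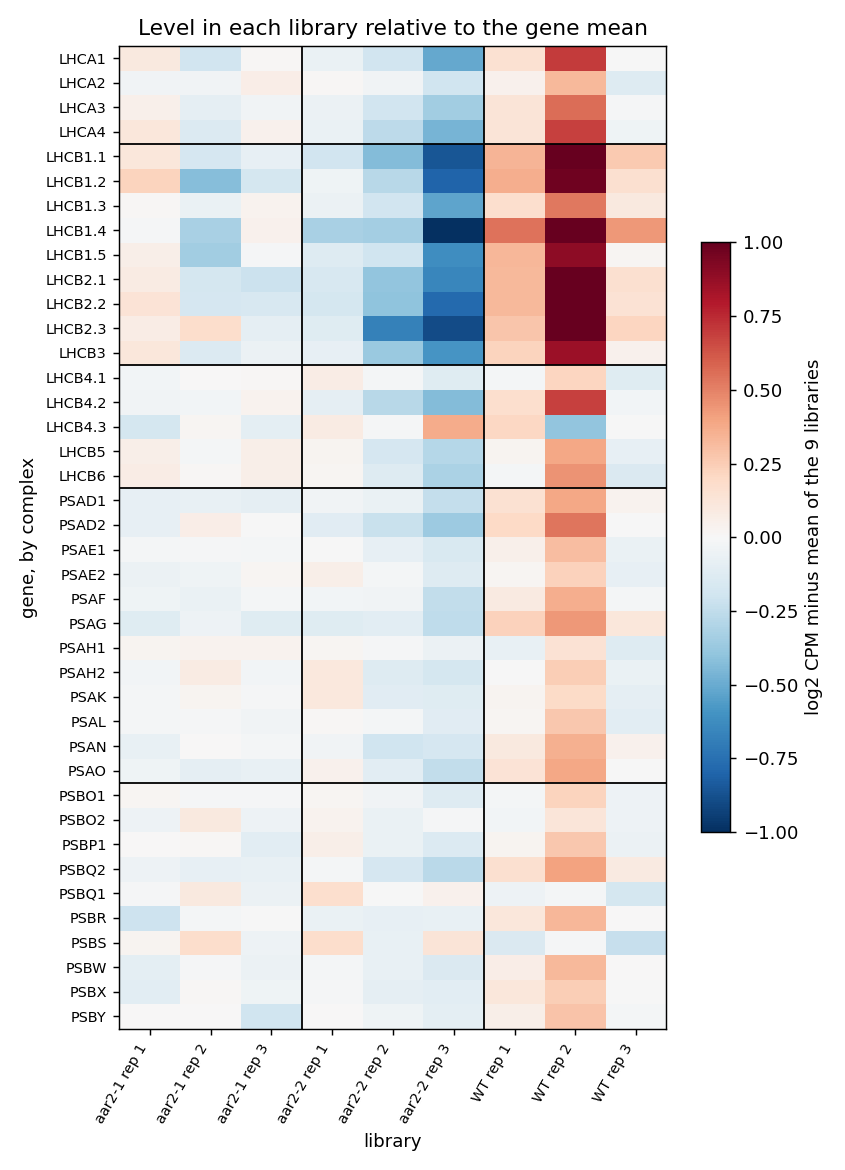
Level of the 40 genes (rows, grouped by complex) in the 9 libraries (columns: aar2-1, aar2-2, WT), as log2 CPM minus the gene's mean over the 9 libraries, with red above and blue below the mean and colours capped at 1 in either direction. WT replicate 2 is red for nearly all genes and aar2-2 replicate 3 is blue for most, with the strongest colours in the 9 major antenna genes. LHCB4.3 shows the opposite pattern.

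The major antenna genes also had the highest median spread between replicates of the 5 groups of genes, in each genotype. The coefficient of variation of the major antenna genes had a median of 11.6% in aar2-1 and 20.4% in aar2-2, against 31% in WT. In LHCI it was 6.67% in aar2-1 and 11.7% in aar2-2, against 24% in WT, and in the minor antenna 2.61% and 11.7%, against 20.5% in WT. For photosystem I subunits it was 1.78% and 7.08%, against 12.3% in WT. For photosystem II subunits the medians were 5.2% in aar2-1 and 4.67% in aar2-2, against 10.9% in WT, and over all genes tested they were 9.31%, 7.44% and 7.19%. In WT, the level in replicate 2 over the mean of the other two had a median of 1.64 for the major antenna, 1.48 for LHCI, 1.33 for the minor antenna, 1.22 for photosystem I and 1.2 for photosystem II, while over all genes it was 0.955. In aar2-2, the level in replicate 1 over that in replicate 3 had a median of 1.52 for the major antenna and 1.01 over all genes. These ratios come from separate libraries of separate genotypes, and across the 40 genes they rose together (Pearson's r = 0.890 and Spearman's rho = 0.885 on the log2 scale). The libraries compared in each ratio were chosen after their values were seen, with WT replicate 2 and aar2-2 replicate 3 as the extremes. The points are genes measured in the same 5 libraries and are not independent. The correlation is therefore a description and not independent support.

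**Figure D4:**
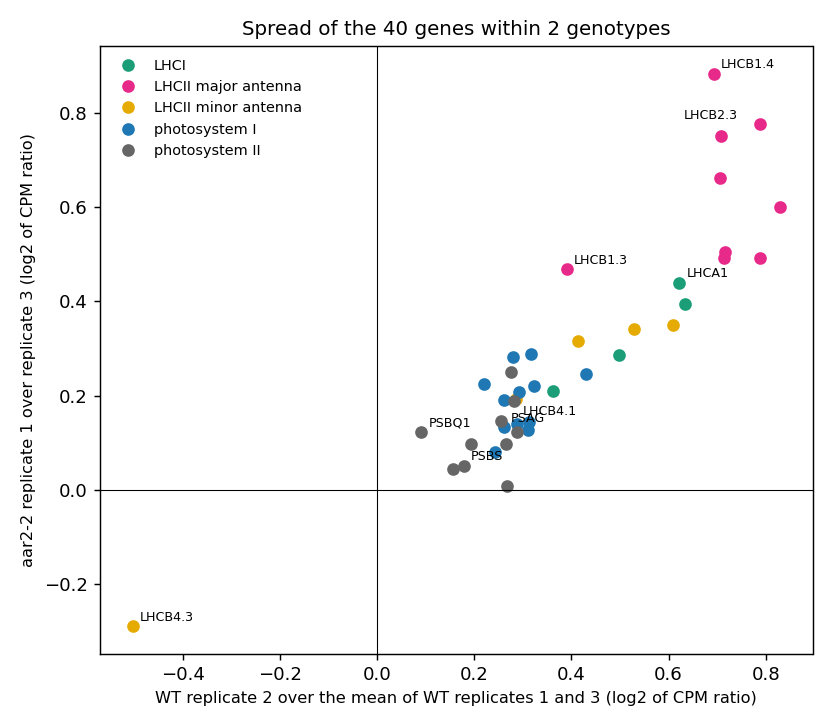
Each point is 1 of the 40 genes, coloured by complex. The x axis is the log2 CPM ratio of WT replicate 2 to the mean of WT replicates 1 and 3, and the y axis that of aar2-2 replicate 1 to aar2-2 replicate 3, so that neither axis compares genotypes. The libraries of both ratios were chosen after their values were seen. The 9 major antenna genes lie at the upper right, the photosystem I and II genes lie closer to the origin, and LHCB4.3 lies alone at the lower left.

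Core clock genes were looked at after the spread in WT had been seen, since the antenna genes cycle over the day. The libraries gave 57.5, 62.3 and 50.8 CPM of CCA1 for aar2-1, 51.6, 44.4 and 49.6 CPM for aar2-2 and 56.3, 91.1 and 56.9 CPM for WT. Levels of LHY were 78.9, 93.2 and 80.1 CPM in aar2-1 and 71.7, 61.8 and 68.5 CPM in aar2-2, compared with 95.4, 134 and 93.1 CPM in WT. Both morning genes were highest in WT replicate 2. They were lowest in aar2-2 replicate 2 (44.4 and 61.8 CPM), not in aar2-2 replicate 3 (49.6 and 68.5 CPM). In aar2-1 PRR7 stood at 60.4, 39.4 and 46.5 CPM and in aar2-2 at 58.8, 55.8 and 38.4 CPM, against 50.2, 68.0 and 50.3 CPM in WT. TOC1 had 97.9, 97.8 and 104 CPM in the aar2-1 libraries and 104, 119 and 105 CPM in the aar2-2 libraries, against 99.5, 76.0 and 104 CPM in the WT libraries. TOC1, an evening gene, was lowest in WT replicate 2, and PRR7 was highest there and lowest in aar2-2 replicate 3. Of 10 clock genes, 4 were called lower in aar2-1 (PRR9, GI, LUX and ELF4) and 1 in aar2-2 (LHY), and 0 were higher, beside 13.6% and 9.4% of all genes called lower. These genes were chosen after their values were seen, and library values are given only for CCA1, LHY, PRR7 and TOC1. None of the genes called in aar2-1 is among these. The part of the clock genes in the antenna results was not tested.

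Genes that act beside the photosystems were taken from lists by pathway. Of 17 Calvin cycle genes, 0 were called in either mutant, and 0 of 15 electron carrier and ATP synthase genes were called in aar2-1 and 1 in aar2-2 (ATPC2, lower). The median log2 fold changes of the Calvin cycle list were 0.07 in aar2-1 and 0.12 in aar2-2. Of 20 chlorophyll synthesis genes tested (PORA was below the minimum), 3 were higher (15%) and 0 lower in each mutant, beside 11.5% of all genes called higher in aar2-1 and 12.1% in aar2-2. For PORC, the values were 275, 294 and 243 CPM in aar2-1, 299, 262 and 274 CPM in aar2-2 and 183, 201 and 189 CPM in WT. PORC, a light-dependent enzyme of chlorophyll synthesis, was higher without overlap in aar2-1 (log2 fold change 0.50, SE 0.08, limma adjusted p = 0.00314) and in aar2-2 (log2 fold change 0.54, SE 0.08, limma adjusted p = 0.0031). Among 15 relatives of the antenna proteins and further subunits, 3 were higher and 2 lower in aar2-1, and 4 were higher and 1 lower in aar2-2. That is 33.3% called in either direction in each mutant, beside 25.1% of all genes in aar2-1 and 21.5% in aar2-2. The early light-induced proteins ELIP1 and ELIP2 are antenna relatives that accumulate under light stress. Levels of ELIP1 were 109, 72.9 and 64.3 CPM in aar2-1 and 99.4, 81.2 and 111 CPM in aar2-2, compared with 21.8, 28.5 and 16.4 CPM in WT. Every mutant library was far above WT. ELIP1 rose in aar2-1 (log2 fold change 1.83, SE 0.22, limma adjusted p = 0.000839) and in aar2-2 (log2 fold change 2.1, SE 0.22, limma adjusted p = 0.000588). In aar2-1 ELIP2 stood at 41.7, 24.7 and 24.9 CPM and in aar2-2 at 37.1, 32.4 and 45.4 CPM, against 8.745, 12.01 and 10.02 CPM in WT. ELIP2 rose likewise, by 1.45 in aar2-1 and 1.80 in aar2-2 on the log2 scale (limma adjusted p = 0.00148 and 0.000808). PSBP2, a PSBP relative of low level, was lower in both, at -0.47 and -0.38 on the log2 scale (limma adjusted p = 0.0143 and 0.0367). Its aar2-1 call was lost without WT replicate 1, and its aar2-2 call without WT replicate 1 or 2 and without aar2-2 replicate 2 or 3.

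Of 8 genes for antenna insertion and state transitions, 2 were higher (25%) and 0 lower in each mutant, again beside 11.5% and 12.1% of all genes called higher. They were CPSRP54, part of the particle that delivers antenna proteins to the membrane, and STN8, a kinase of photosystem II core proteins. CPSRP54 had 223, 222 and 209.5 CPM in the aar2-1 libraries and 232, 218 and 214 CPM in the aar2-2 libraries, against 177, 176 and 184 CPM in the WT libraries. The libraries gave 148, 152 and 153 CPM of STN8 for aar2-1, 162, 157 and 157 CPM for aar2-2 and 128, 131 and 117 CPM for WT. Neither gene overlapped WT. The log2 fold changes of CPSRP54 were 0.28 and 0.30 in aar2-1 and aar2-2 (limma adjusted p = 0.00772 and 0.00727), and those of STN8 were 0.27 and 0.34 (limma adjusted p = 0.0096 and 0.00479). STN7, the kinase of state transitions, had -0.0037 and -0.05 and was not called. Of 15 regulators, 1 was higher and 1 lower in aar2-1, and 1 was higher and 3 lower in aar2-2. In either direction these are 13.3% and 26.7% of the list, beside 25.1% and 21.5% of all genes. GLK1 and GLK2 activate antenna and chlorophyll genes. For GLK1, the values were 136, 154 and 122 CPM in aar2-1, 153, 154 and 126 CPM in aar2-2 and 155, 153 and 137 CPM in WT. Levels of GLK2 were 79.0, 106 and 63.7 CPM in aar2-1 and 102, 88.6 and 81.5 CPM in aar2-2, compared with 106, 130.2 and 92.7 CPM in WT. Both overlapped WT, and neither was called: GLK1 was fitted at -0.12 for aar2-1 and -0.04 for aar2-2, GLK2 at -0.42 and -0.27. In aar2-1 HY5 stood at 10.06, 12.3 and 8.91 CPM and in aar2-2 at 12.7, 14.3 and 14.8 CPM, against 13.6, 11.4 and 12.1 CPM in WT. HY5, a light-signalling factor, had -0.23 and 0.16 and was not called. PIF4 had 33.8, 24.3 and 30.1 CPM in the aar2-1 libraries and 29.2, 27.4 and 19.6 CPM in the aar2-2 libraries, against 40.4, 50.9 and 38.8 CPM in the WT libraries. PIF4, a growth-promoting factor of light and temperature signalling, was below WT in every mutant library and was called lower in aar2-1 (log2 fold change -0.55, SE 0.16, limma adjusted p = 0.0357) and in aar2-2 (log2 fold change -0.76, SE 0.16, limma adjusted p = 0.0124). The aar2-1 call was lost without any 1 of the WT libraries and without aar2-1 replicate 2 or 3, and the aar2-2 call held under all 18 alternatives at an adjusted p under 0.05.

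**Figure D5:**
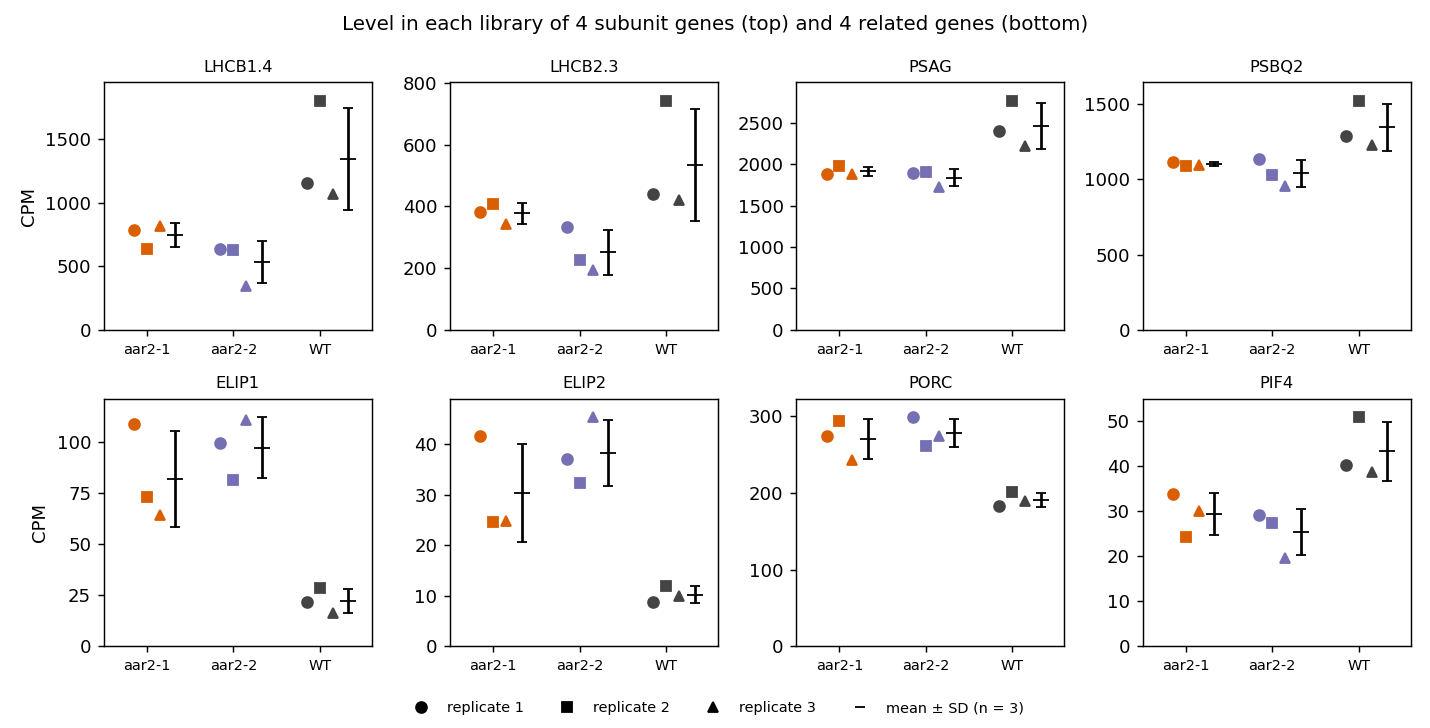
CPM in each library (y axis, from 0) of LHCB1.4, LHCB2.3, PSAG and PSBQ2 (top) and of ELIP1, ELIP2, PORC and PIF4 (bottom), for aar2-1, aar2-2 and WT, with the 3 replicates as symbols and the mean ± SD beside them. The 4 subunit genes and PIF4 are lower in all mutant libraries than in WT, and ELIP1, ELIP2 and PORC are higher.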

How the data were processed

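Messenger RNA sequencing values of 9 seedling libraries were used, grouped by the genotype in the sample titles. Each library's deposited table gives CPM of 22903 locus codes, and this unit was read from the values, which sum to between 999965 and 999978 per library. The submitters' processing notes name TAIR10, featureCounts 1.64 and DESeq2, with no role or order. Low values are whole multiples of 1 read (0.0284 to 0.0409 CPM), and 99.9956% to 100% of values per library came out within 0.05 of a whole read, so the count tests edgeR 4.0.16 (quasi-likelihood) and DESeq2 1.42.0 were run on recovered reads as alternatives added after seeing the data. They called 2 and 7 of the 40 genes in aar2-1, beside 25.8% and 27.5% of all genes. In aar2-2 they called 18 and 19 of the 40, beside 22.4% and 24.3% of all genes. Each of the 40 genes had at least 3892 reads in every library, and counting error was not compared with the spread between replicates.

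Because the deposited unit was not a count, limma 3.58.1 (R 4.3.3; lmFit and eBayes, trend on) was fitted to log2(CPM + 1), with all 9 libraries in 1 model and a minimum mean of 1 CPM, which 18838 genes passed. Benjamini-Hochberg adjustment ran over all these genes, and calls were made at 0.05. Fold changes are on that log2(CPM + 1) scale, which understates changes of low genes. The procedure was tested on simulated data in which each gene was drawn independently. That simulation held no shift of a library shared by many genes, such as that of WT replicate 2. The share of a paralogue pair was compared by exact permutation tests.

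Genes, gene order, introns, transcript lengths, overlaps and sequences were taken from TAIR10.1 with RefSeq annotation, which matched 22767 of the codes and all 40 genes. The positions may differ from the annotation used for counting. The genes and pathway lists were chosen with earlier results of these data known. The genes given with every library were those called in both mutants, both copies of each pair, the highest, the lowest, the most and the least changed of each complex, up to 3 genes per pathway list called in both mutants, and GLK1, GLK2, HY5 and AAR2. LHCB1.1, LHCB2.1, LHCB2.3 and the clock genes were added after their values were seen. Libraries were not paired by replicate number in the main fit. Deviations of same-numbered libraries from their group means correlated at -0.044, 0.22 and 0.22 between aar2-1 and WT. They correlated at -0.14, -0.19 and 0.26 between aar2-2 and WT and at 0.19, -0.17 and 0.52 between aar2-2 and aar2-1. Replicate 3 had a positive value in each comparison (0.22, 0.26 and 0.52), and a shared origin of the replicate 3 libraries was not tested.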

Additional observations from a re-analysis of the deposited data

How the results depend on the processing

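The alternatives were the replicate number as a block, no filter on low values, a pseudocount of 0.1, quantile normalization, TMM scaling, only the 2 groups compared, no trend, adjusted p under 0.01, a 1.5-fold minimum, and leaving out each library, with edgeR and DESeq2 added after seeing the data. Of the 40 genes, 2 were called in aar2-1, 14 in aar2-2, 2 in both and 0 between the mutants. Same-numbered libraries were the best match in 4 of 9 cases. These included every case of replicate 3 (r = 0.22 for aar2-1 with WT, 0.26 for aar2-2 with WT and 0.52 for aar2-2 with aar2-1). With the replicate block 3 genes were called in aar2-1 and 12 in aar2-2, beside 25.4% and 21.1% of all genes. DESeq2 called 7 in aar2-1 and 7 in both. An adjusted p under 0.01 left 0, 1 and 0 genes for aar2-1, aar2-2 and both, and a 1.5-fold minimum left 1, 8 and 1. Leaving out 1 library gave 0 to 4 genes in aar2-1, 4 to 17 in aar2-2 (5 without WT replicate 1, 6 without WT replicate 2, 17 without WT replicate 3, 6 without aar2-2 replicate 2 and 4 without aar2-2 replicate 3), 0 to 4 in both and 0 between the mutants. Of all genes, 21.5% were called in aar2-2 with all libraries. This share was 9.14% without WT replicate 1, 13.8% without WT replicate 2 and 14% without WT replicate 3. It was 12.1% without aar2-2 replicate 2 and 13.4% without aar2-2 replicate 3. With 1 library left out, the lone pair of its group is assumed to vary like the other groups.

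Log2 ratios of summed CPM ranged, with 1 library left out, from -0.35 to -0.039 (aar2-1) and -0.53 to -0.22 (aar2-2) for LHCI, from -0.46 to -0.15 and -0.70 to -0.39 for LHCII, from -0.25 to -0.073 and -0.31 to -0.13 for photosystem I, and from -0.16 to -0.020 and -0.17 to -0.031 for photosystem II. Without the LHCB1 genes the LHCII value in aar2-1 was -0.20. With them, and not on the log2 scale, the mean LHCII sum of aar2-1 was 0.780 of that of WT.

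Genes near 0 changed sign, and none of these was called. Under quantile normalization the log2 fold changes in aar2-1 and aar2-2 were 0.094 and 0.11 for PSBO1, 0.072 and 0.074 for PSBO2, and 0.11 and 0.15 for LHCB4.1. They were 0.037 and 0.0010 for LHCA2, 0.027 and 0.073 for PSAL, and 0.053 and 0.035 for PSAK. LHCB1.3 was not near 0 in aar2-1, at -0.27, and quantile normalization brought it to 0 without a change of sign. PSAH1 in aar2-2 had -0.051 under quantile normalization, -0.034 under TMM scaling, -0.042 by edgeR and -0.038 by DESeq2. With 1 library left out, values in aar2-1 ran from -0.18 to 0.041 for LHCA2, -0.10 to 0.067 for LHCB4.1, -0.19 to 0.12 for LHCB4.3, -0.15 to 0.0049 for PSAE2, -0.0026 to 0.13 for PSAH1, -0.11 to 0.046 for PSAH2, -0.11 to 0.033 for PSAK, -0.17 to 0.019 for PSAL, -0.10 to 0.033 for PSBO1 and -0.064 to 0.037 for PSBO2. In aar2-2 they ran from -0.097 to 0.050 for GLK1, -0.12 to 0.049 for LHCB4.1, -0.16 to 0.0018 for PSAE2, -0.051 to 0.085 for PSAH1, -0.19 to 0.0001 for PSAL and -0.060 to 0.027 for PSBO2. The difference in pair share between aar2-1 and WT ran from -1.11 to 0.296 percentage points for PSAD1 and from -0.915 to 0.225 for PSBO1. The cause of these changes was not tested.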
